A study of Mus musculus with 289 samples.

Results

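Guide-carrying cells that read the proliferation genes Top2a and Mki67 were set against guide-carrying cells that read neither. The cells were single astrocytes, as labelled, taken up one at a time with an electrophysiology pipette from the cortex of adult transgenic mice expressing Cas9, with polyadenylated RNA of every cell sequenced by Smart-seq2. The mice had been injected with the lentivirus Mok-LV, described as specific to astrocytes, carrying guide RNAs (gRNAs). The members were chosen by their measured reads of these 2 genes: a cell labelled g-Control, g-Sox9, g-Trps1 or g-Sox9+Trps1 counted as proliferating where its raw Top2a and Mki67 reads summed to 10 or more. A cell of the same labels counted as a 0-read cell where it had no read of either gene. Of 182 guide-carrying cells with values, 19 were proliferating, 148 were 0-read cells and 15 had 1 to 9 reads and entered neither group. The 2 groups thus held 167 of the 254 cells and controls analysed. Ratios between the groups stayed within 1 of the 5 batches. Counts, medians and ranges given without a batch cover all 5 batches together. Of these, batch 5 gave 48 of the 148 0-read cells and 0 proliferating cells. Batch 1 held g-Control and g-Sox9+Trps1 cells whose labelled day ran on from cell to cell and was not used. Batch 2 held g-Control cells of days 7 and 21 and g-Sox9+Trps1 cells of day 21. Batch 3 held g-Sox9 and g-Sox9+Trps1 cells of day 7. Batch 4 held g-Control, g-Sox9 and g-Sox9+Trps1 cells of day 21 and g-Trps1 cells of day 7. Batch 5 held g-Sox9 and g-Trps1 cells of day 21. Cells labelled no-gRNA (adult mice) and in-slice controls (labelled as no cell or as slice control) were read by the same rule as background. The guide label is that of the injected virus and does not show that a gene was edited in a given cell. The labels name no animal, so the cells of a batch and group form 1 pool with no replicate, and no test or p-value is given for any difference.

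Top2a encodes DNA topoisomerase II alpha, which untangles DNA strands during replication and chromosome segregation, and Mki67 encodes Ki-67, a protein that coats mitotic chromosomes. Both are transcribed mainly from S phase to mitosis and are used in brain tissue as markers of dividing cells. Astrocytes of the healthy adult cortex seldom divide, and after injury some astrocytes re-enter the cell cycle, as do microglia, the resident macrophages of the brain. Microglia and astrocytes lie close together in the tissue, so the RNA of both was looked for in each cell.

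The 19 proliferating cells made up 10.4% of the guide-carrying cells (exact binomial 95% interval 6.40 to 15.8%, counting error only). The sum of Top2a and Mki67 reads ran from 10 to 4938 with a median of 68. In batch 1 the 4 cells held sums of 17, 59, 817 and 850 reads, and in batch 3 the 3 cells held 27, 259 and 809. The 2 cells of batch 2 held 162 and 4938 reads. The 10 cells of batch 4 ran from 10 to 3471 reads with a median of 53. The cell nearest the threshold from above was g-Control replicate 33 of batch 4, with 6 Top2a and 4 Mki67 reads. The nearest from below were 3 cells with 3 reads, and no guide-carrying cell had 4 to 9. These values chose the groups and are given as a description.

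Most proliferating cells read 1 of the 2 genes: 8 read both, 8 read Top2a alone and 3 read Mki67 alone. The highest sum, in g-Sox9+Trps1 replicate 7 of batch 2, was made of 4418 Top2a and 520 Mki67 reads. The next, in g-Trps1 replicate 12 of batch 4, was made of 3471 Mki67 reads with no read of Top2a. In g-Control replicate 2 of batch 1 all 850 reads were of Top2a. A high count of one gene therefore stood beside 0 of the other in several single-cell libraries, and a 0 in such a library does not show that the gene was silent.

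**Figure D1:**
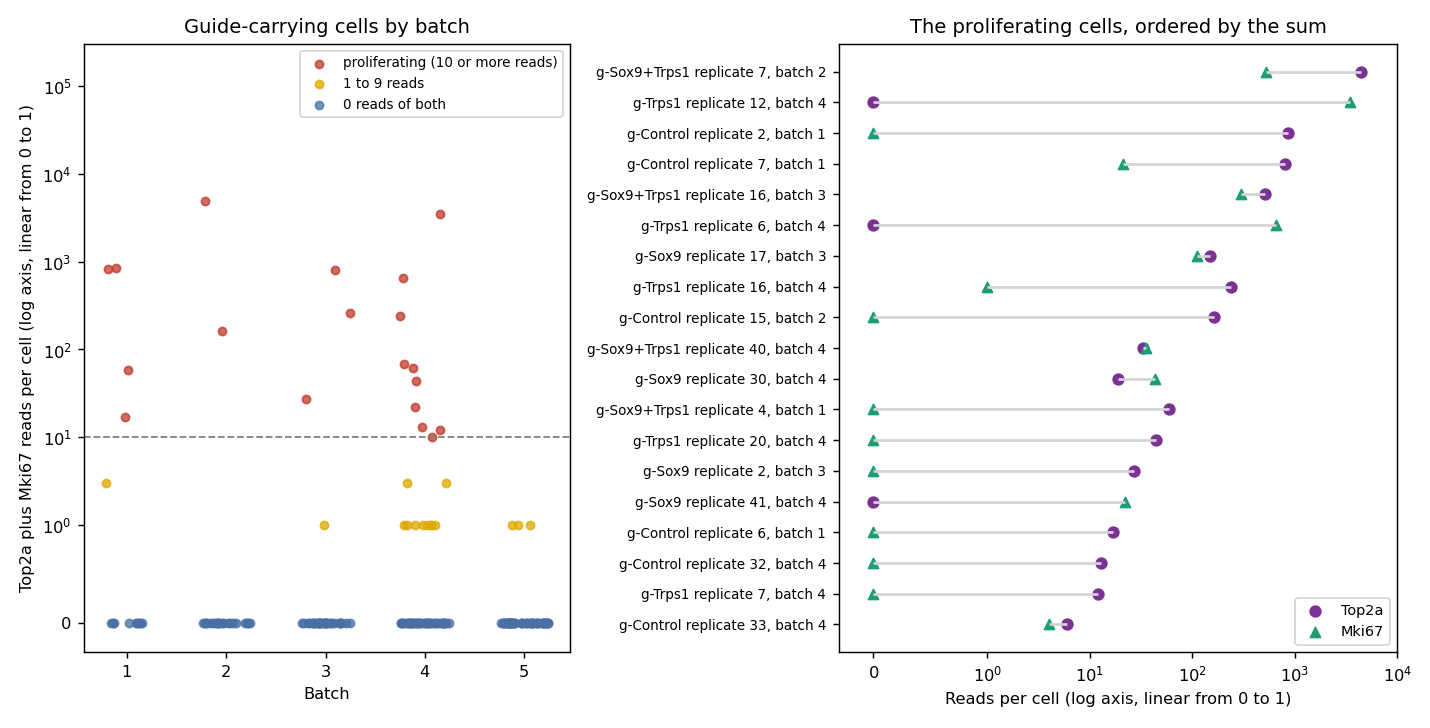
Left, the sum of Top2a and Mki67 reads in each guide-carrying cell by batch, on a log axis that is linear from 0 to 1, with the threshold of 10 reads dashed and proliferating cells in red. Right, the Top2a reads (circles) and Mki67 reads (triangles) of the 19 proliferating cells, ordered by their sum; 11 of the 19 cells have 1 of the 2 genes at 0.

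Batch 1 had 4 proliferating cells among 14 guide-carrying cells and batch 2 had 2 among 23. Batch 3 had 3 among 35, batch 4 had 10 among 59 and batch 5 had 0 among 51. The batch 5 count allows a share of up to 5.88%. Proliferating cells bore every label: 6 of 40 g-Control, 4 of 58 g-Sox9, 4 of 39 g-Sox9+Trps1 and 5 of 45 g-Trps1 cells met the rule. Their intervals were 5.71 to 29.8%, 1.91 to 16.7%, 2.87 to 24.2% and 3.71 to 24.1%, for the counting error of cells only. The labels were spread unequally over batches and days. Batch 5 held no g-Control cell, and 0 of 21 g-Sox9 and 0 of 30 g-Trps1 cells there met the rule. These shares therefore do not compare the gRNAs. The highest share in a pool of more than 10 cells was 5 of 15 g-Trps1 cells of day 7 in batch 4 (33.3%, 11.8 to 61.6%). In the same batch 2 of 16 g-Sox9 cells, 1 of 13 g-Sox9+Trps1 cells and 2 of 15 g-Control cells were proliferating, all of day 21, so gRNA and day cannot be told apart there. In batch 2, the one batch with the control gRNA at both days, 1 of 8 g-Control cells of day 7 and 0 of 7 of day 21 met the rule. Over batches 2 to 5 together, 9 of 58 day 7 cells and 6 of 110 day 21 cells were proliferating, and the batches held the days in unequal numbers. By the same rule 0 of 60 no-gRNA cells were proliferating, which allows up to 5%, and 0 of 12 in-slice controls, which allows up to 25%. One no-gRNA cell had 5 reads, and 1 in-slice control of batch 3 had 9.

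Proliferating cells had a higher median number of genes with a read than 0-read cells of their batch. The medians were 5066 against 3393 genes in batch 1, 7611 against 5069 in batch 3 and 6999.5 against 3152 in batch 4, and the ranges overlapped in each. The 2 proliferating cells of batch 2 read 3510 and 9024 genes, against a 0-read median of 3914. By cell, 17 of 19 proliferating cells stood above the median 0-read cell of their batch and 6 above the highest. Proliferating cells held 325744 to 2786766 reads assigned to genes (median 1512365), against 111941 to 4656612 (median 1177752) in 0-read cells. With cells thinned to 200000 reads, which left out 2 shallower guide-carrying cells with 0 reads of the rule genes, the medians were 3723.5 against 2123 genes in batch 1, 6093 against 3950.5 in batch 3 and 5208.5 against 1960 in batch 4. The difference in genes read thus stood at equal depth, and every count of genes detected below is to be read beside it. One proliferating library stood apart. In g-Trps1 replicate 20 of batch 4, 2 of 30 astrocyte identity genes and 3 of 32 microglial genes had a read, the vector reporter DsRed had 0 reads, and Top2a had 44. It was kept below. Without it, a choice made after seeing the data, the median ratios described below, taken as the median over batches 1, 3 and 4, were 1.87 in place of 1.82 for cell cycle genes, -0.83 in place of -0.90 for microglial genes and 0.21 both ways for astrocyte genes.

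Cell cycle genes other than the 2 rule genes were read more often in the proliferating cells. Of 90 such genes (35 of replication and G1/S, 55 of G2 and mitosis), proliferating cells read 8 to 77 with a median of 27, and 0-read cells read 0 to 24 with a median of 9. In batch 1 the proliferating cells read 18, 20, 20 and 54 of them, against 6 to 22 (median 13) in 0-read cells. In batch 2 they read 34 and 43, against 1 to 18 (median 10). In batch 3 they read 17, 62 and 77, against 4 to 23 (median 10). In batch 4 they read 8 to 34 (median 26.5), against 0 to 24 (median 7). Thus 12 of 19 proliferating cells stood above every 0-read cell of their batch, and all 19 stood above its median. Such counts were not confined to cells at the threshold of 10 reads. Among cells with 1 to 9 rule gene reads, g-Control replicate 5 (batch 1) read 30 and g-Sox9+Trps1 replicate 25 (batch 3) read 25. In batch 4 g-Control replicates 29 and 30 read 31 and 36. Each of these exceeded all 0-read cells beside it, but only 2 of the 10 such cells in batch 4 did. The 3 such cells in batch 5 read 5, 13 and 21, within its 0-read range of up to 22.

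Cells with more genes read tended to read more cell cycle genes, but no correlation was computed and some cells departed from this. In batch 2 g-Sox9+Trps1 replicate 7 read 43 cell cycle genes with 3510 genes in all. In batch 1 g-Control replicate 6 read 20 with 8686. Cell cycle genes were most numerous, and far above any 0-read cell, in 4 libraries: g-Sox9 replicate 17 (77) and g-Sox9+Trps1 replicate 16 (62) of batch 3, g-Control replicate 7 of batch 1 (54) and g-Sox9+Trps1 replicate 7 of batch 2 (43). Per 1000 genes read, proliferating cells held a median of 3.77 cell cycle genes (2.136 to 12.3) and 0-read cells 2.097 (0 to 6.58), and 7 of 19 stood above every 0-read cell of their batch. Beside 0-read cells of the same batch within 25% of their own number of genes read, a comparison chosen after seeing the data, 13 of the 18 cells that had such neighbours read more cell cycle genes than all of them. The 5 that did not were g-Control replicate 2 and g-Sox9+Trps1 replicate 4 of batch 1, g-Sox9 replicate 2 of batch 3, and g-Sox9 replicate 41 and g-Trps1 replicate 6 of batch 4. For 3 of the 13, g-Sox9 replicate 17 of batch 3 and g-Control replicates 32 and 33 of batch 4, the neighbours were 1 single cell. The cells that read both rule genes had 25 to 77 cell cycle genes (median 38.5), those with Top2a alone 17 to 34 (median 23) and those with Mki67 alone 8 to 18 (median 17), and genes read followed the same order, with medians of 8664.5, 6491.5 and 3746.

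**Figure D2:**
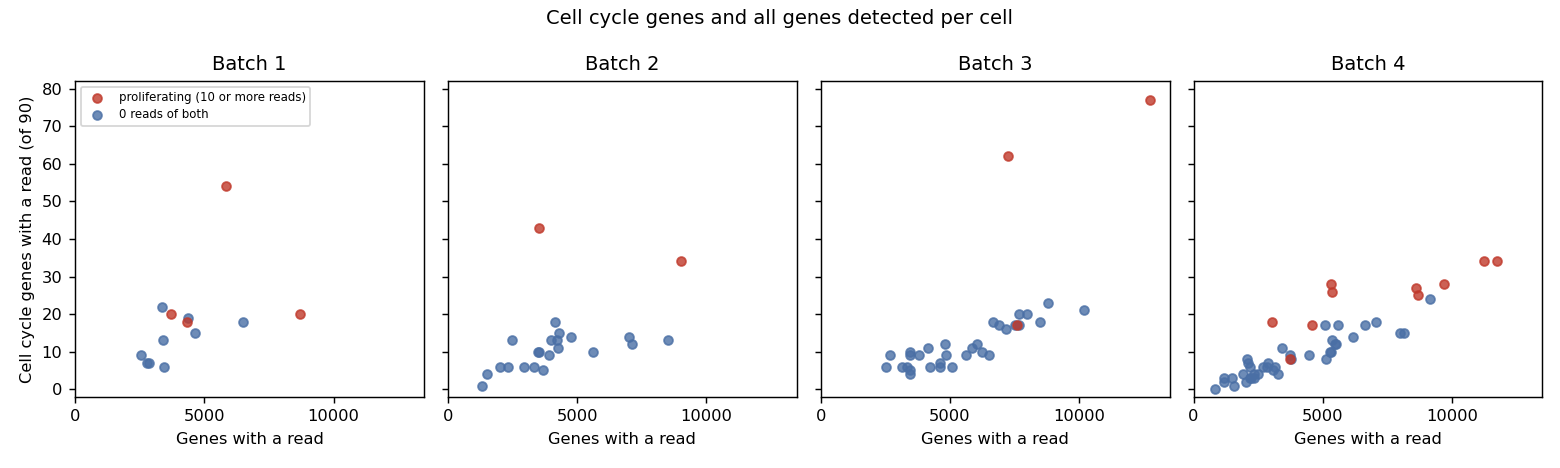
Cell cycle genes with a read (of 90, Top2a and Mki67 not among them) against all genes with a read, 1 point per guide-carrying cell, in batches 1 to 4, with proliferating cells in red and 0-read cells in blue. The cells at 54, 43, 62 and 77 cell cycle genes lie above every 0-read cell of their batch, the last of them with more genes read than any 0-read cell, while g-Sox9 replicate 41 of batch 4 (8 genes) lies among them.

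Reads were then summed over the proliferating and the 0-read cells of each batch with at least 3 cells in both pools (batches 1, 3 and 4) and scaled to CPM, the reads of a gene relative to all reads in genes of the pool on a common scale. A log2 ratio compares the pools after adding 5 CPM to each, over genes averaging 5 CPM or more. A gene is called where the ratio is at least 1 in size and the share of cells with a read differs by at least 20 percentage points in the same direction. Of all genes, 28% were called higher in proliferating cells and 8.24% lower in batch 1, 22.9% higher and 2.31% lower in batch 3, and 21.6% higher and 0.469% lower in batch 4. Of the cell cycle genes, 30 of 59 tested were called higher in batch 1, 67 of 77 were in batch 3 and 24 of 49 were in batch 4. None was called lower in any of the 3, but few could be. A lower call needs a read in at least 20% of 0-read cells, and over all batches most of the listed genes had fewer. With 3 or 4 proliferating cells, 1 cell with a read can meet the share for a higher call. The median log2 ratios of the cell cycle genes were 1.82, 2.71 and 1.71, beside medians over all genes of 0.56, -0.03 and 0.51. With the highest cell of each pool left out gene by gene, the cell cycle medians were 0.00, 1.005 and 0.75, beside 0.00, -0.60 and 0.00 over all genes, so single cells carried much of the ratio, and in batch 1 the list no longer lay above all genes.

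G2 and mitosis genes were called higher in all 3 batches at 25 of 40, 39 of 46 and 16 of 31 tested. Replication and G1/S genes were called in 5 of 19, 28 of 31 and 8 of 18, so in batch 1 their share lay near that of all genes. Of 85 cell cycle genes tested in at least 1 of these batches, 36 were called higher in 2 or more and 10 in all 3. The matching shares over all genes were not computed, and single batches called 28%, 22.9% and 21.6% of all genes higher. The 10 were the mitotic kinase genes Pbk and Aurka, the condensin genes Smc2, Smc4 and Ncapd2, the spindle genes Tpx2 and Ckap2l, the kinetochore motor gene Cenpe, and the replicative helicase genes Mcm5 and Mcm6.

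Pbk was read in 12 of 19 proliferating cells and 6 of 148 0-read cells. In batch 1 it lay at 80.3, 83.7, 334 and 1260 CPM in the 4 proliferating cells, against at most 1.79 CPM in any 0-read cell, and the groups did not overlap. In batch 3 it lay at 0, 79.3 and 190.1 CPM, against 0 to 35.7 CPM with a median of 0. In batch 4 it ran from 0 to 399.96 CPM with a median of 3.29, against 0 to 2.62 CPM with a median of 0. The log2 ratios of the pools were 6.45, 3.96 and 3.72.

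Tpx2, a spindle assembly factor that activates Aurka, was concentrated in fewer cells. The batch 4 pool held 286 CPM (Poisson 95% interval 277 to 296) from 3 of 10 cells, of which g-Trps1 replicate 12 alone held 1817 CPM, against no read in 39 0-read cells (at most 0.0642 CPM by 3 counts in the pool). In batch 3 the values were 78.0 CPM from 2 of 3 cells and 2.17 CPM from 2 of 31 cells. Ncapd2, a condensin subunit, held 69.3 CPM in proliferating and 7.24 CPM in 0-read cells of batch 1, 130.2 and 15.7 CPM in batch 3, and 227 and 0.107 CPM in batch 4. Smc4, the condensin ATPase, held 413 and 0.216 CPM, 66.2 and 5.48 CPM, and 43.98 and 1.01 CPM in the same batches and the same order of groups. These 3 genes differed in which cells carried them: Smc4 was highest in g-Sox9+Trps1 replicate 4 (1589 CPM), where Tpx2 and Ncapd2 had no read.

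Other members of the lists varied between batches. Tubb5, a tubulin gene, was read in 18 of 19 proliferating and 127 of 148 0-read cells, and its ratios were 2.44, 0.97 and -0.24, with no call. Pcna, the replication clamp, was read in 12 of 19 and 60 of 148 cells, with 86.8 and 53.3 CPM in batch 1, 215 and 44.02 CPM in batch 3 and 120.3 and 24.1 CPM in batch 4, and was called in batches 3 and 4. Cdk1, the mitotic kinase, was called higher in batch 3 alone, at 134 and 0.0442 CPM, and held 71.1 and 68.7 CPM in batch 1 and 55.8 and 6.84 CPM in batch 4. In batch 1 its reads came from 1 of 4 proliferating and 1 of 9 0-read cells.

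**Figure D3:**
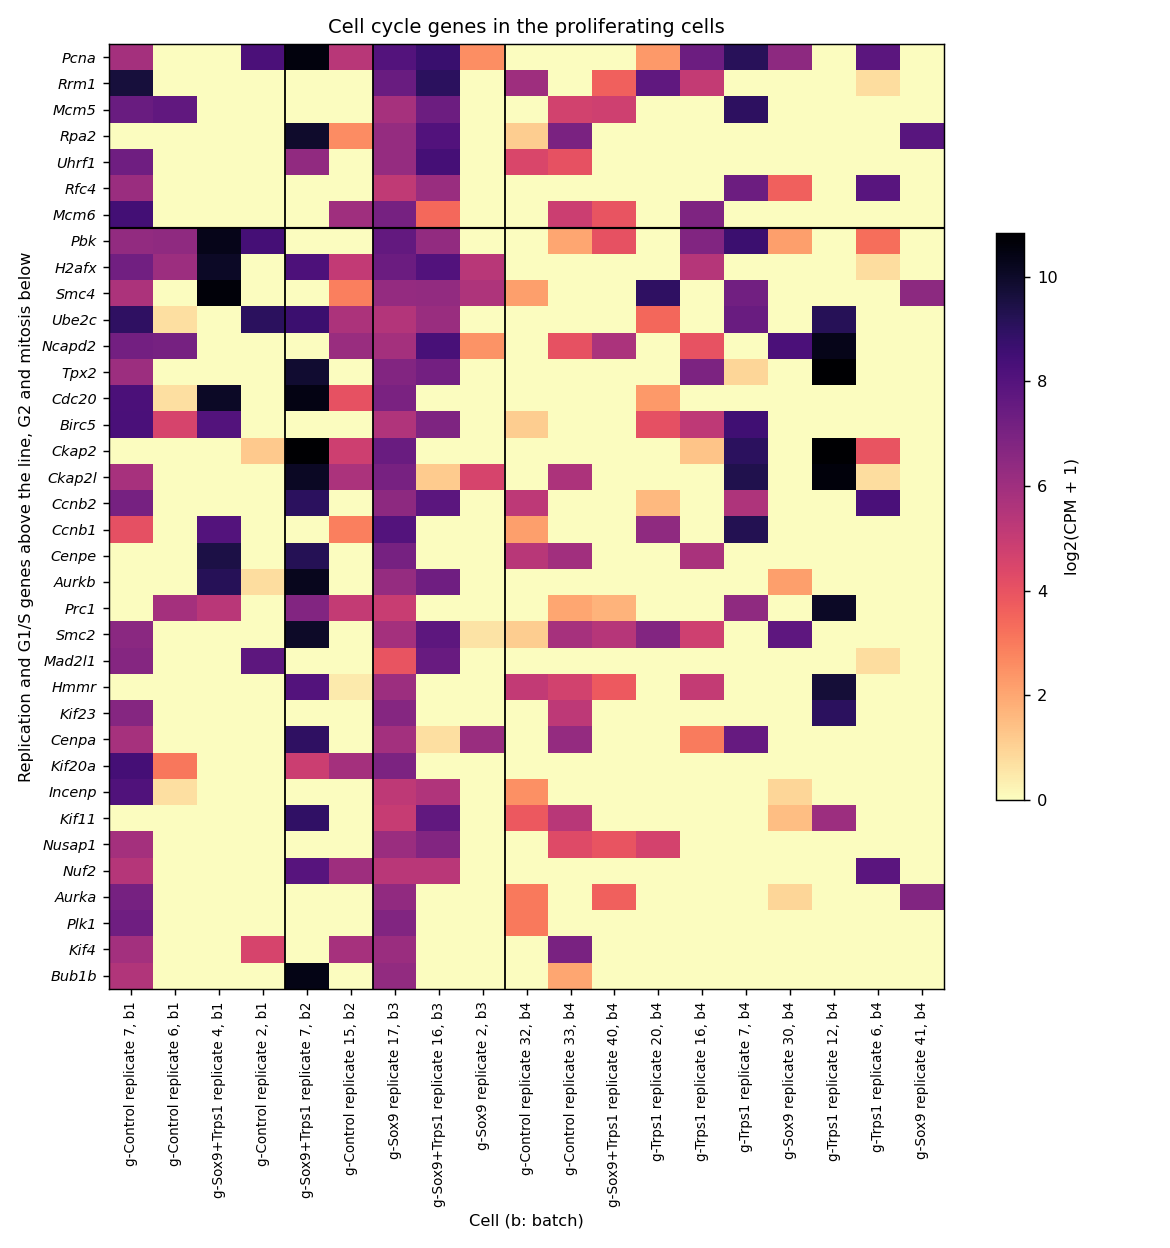
Level of each of the 36 cell cycle genes called higher in 2 or more of batches 1, 3 and 4 (rows, as log2 of CPM plus 1) in each of the 19 proliferating cells (columns, by batch and then by the number of cell cycle genes read). Genes of replication and G1/S are above the horizontal line. Columns of batch 4 are sparser than those of g-Sox9 replicate 17 and g-Sox9+Trps1 replicate 16 of batch 3.

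Promoters were looked up for the rule genes, whose reads chose the proliferating cells, and for the cell cycle genes called in all 3 batches. Genes of G2 and mitosis are known to carry CCAAT boxes and the cell cycle element CHR (TTTGAA) upstream of their start. RefSeq promoters of build GRCm38.p6 were searched on both strands over the 250 bases before the start site for CCAAT, for TTTGAA and for the E2F-type motif TTCCCGC. Of 32851 such windows, 33.8% held CCAAT, 15.99% TTTGAA and 3.82% TTCCCGC. Of the 9 rule or called genes with a RefSeq entry, all 9 held CCAAT, 5 held TTTGAA and 0 held TTCCCGC. Pbk, Smc4 and Tpx2 were not matched. These genes came from the rule and from a list of known cell cycle genes, so the counts are no test of enrichment over all windows. The 4 windows below run 5′ to 3′ in the direction of the gene, with CCAAT and TTTGAA matches on either strand (also written ATTGG and TTCAAA) in capitals. Top2a is at chr11.0:99024190-99024439 on the minus strand, Mki67 at chr7.0:135716380-135716629 on the minus strand, Aurka at chr2.0:172370571-172370820 on the minus strand and Mcm5 at chr8.0:75109259-75109508 on the plus strand.
Top2a: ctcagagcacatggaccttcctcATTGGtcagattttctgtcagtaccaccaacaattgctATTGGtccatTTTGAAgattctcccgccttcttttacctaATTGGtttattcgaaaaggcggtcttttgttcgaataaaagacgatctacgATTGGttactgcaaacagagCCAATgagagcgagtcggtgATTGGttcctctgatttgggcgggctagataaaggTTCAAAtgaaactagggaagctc
Mki67: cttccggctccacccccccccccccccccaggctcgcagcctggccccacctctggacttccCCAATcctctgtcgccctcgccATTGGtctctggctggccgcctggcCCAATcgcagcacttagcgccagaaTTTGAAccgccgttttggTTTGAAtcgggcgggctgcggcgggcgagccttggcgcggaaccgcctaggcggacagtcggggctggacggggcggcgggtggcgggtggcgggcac
Aurka: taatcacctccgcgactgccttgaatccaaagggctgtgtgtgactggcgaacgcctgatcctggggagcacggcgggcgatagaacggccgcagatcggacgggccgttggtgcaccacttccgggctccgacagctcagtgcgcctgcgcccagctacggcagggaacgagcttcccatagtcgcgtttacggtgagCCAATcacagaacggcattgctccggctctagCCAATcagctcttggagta
Mcm5: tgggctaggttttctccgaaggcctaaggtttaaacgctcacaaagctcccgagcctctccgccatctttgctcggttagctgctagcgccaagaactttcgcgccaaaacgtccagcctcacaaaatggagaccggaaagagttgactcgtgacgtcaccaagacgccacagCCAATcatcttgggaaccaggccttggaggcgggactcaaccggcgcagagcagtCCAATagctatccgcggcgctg
Top2a held 6 CCAAT and 2 TTTGAA matches and Mki67 held 3 and 2, whereas Aurka and Mcm5 held 2 CCAAT matches each and no TTTGAA. A match is a description of the letters and says nothing of binding in these cells.

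Astrocyte genes were present in the proliferating cells at summed levels within the range of 0-read cells, except in g-Trps1 replicate 20, which lay below it. All proliferating cells but g-Trps1 replicate 20 read 17 to 30 of the 30 astrocyte identity genes. Over all batches the summed level of the list ran from 126 to 51383 CPM in proliferating cells (median 19495). In 0-read cells it ran from 353 to 129715 CPM (median 24053), and the groups overlapped in every batch with both. Within batches 1 to 4 the medians were 19232 and 20051, 28169 and 37139, 43160 and 30166, and 10640 and 9172 CPM. The median log2 ratios of the list were -0.44 in batch 1, 0.21 in batch 3 and 0.69 in batch 4, and 1, 10 and 4 of the 30 genes were called higher and 1, 0 and 0 lower. The share called higher was below that of all genes in batches 1 and 4 and above it in batch 3, at 10 of 30 against 22.9%.

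Abundant members of the list were not called in any of these batches. Apoe, a lipid carrier, held 4946 CPM in proliferating and 5495 CPM in 0-read cells of batch 1, 9405 and 8969 CPM in batch 3, and 4409 and 7297 CPM in batch 4. Slc1a3, the glutamate transporter GLAST, had ratios of 0.40, 0.90 and 0.58, and Clu, a secreted chaperone, had -1.002, 0.84 and -0.11. Aldoc, an astrocyte aldolase, had ratios of -0.96, -0.91 and -0.42. The carboxypeptidase gene Cpe was read in all 19 proliferating cells and 143 of 148 0-read cells.

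Some astrocyte identity genes were called. Aqp4, the water channel of astrocyte endfeet, held 729 and 291 CPM in batch 1 and 2109 and 507 CPM in batch 3, and was read in 17 of 19 proliferating and 100 of 148 0-read cells. Aldh1l1, a folate enzyme used as an astrocyte marker, held 643 and 113 CPM in batch 3 and 310 and 44.2 CPM in batch 4. Mlc1, a membrane protein of endfeet, held 985 and 391.997 CPM in batch 3 and 493.03 and 93.9 CPM in batch 4. The transporter gene Slc7a10 was called lower in batch 1, at 79.2 CPM in proliferating and 457 CPM in 0-read cells.

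Microglial genes were present in both groups, at summed levels that overlapped. Of 32 microglial and macrophage genes, proliferating cells read 3 to 30 (median 19) and 0-read cells 1 to 29 (median 16), and 30 of the 32 genes had a read in a larger share of proliferating cells, as did 23 of the 30 astrocyte genes. The part of the larger number of genes read in these shares was not tested. Over all batches the summed level ran from 13.99 to 35191 CPM in proliferating cells (median 4399). In 0-read cells it ran from 1.11 to 59350 CPM (median 6627), and the ranges overlapped in every batch with both. Within batches 1 to 4 the medians were 17813 and 1925, 18314 and 6882, 4339 and 8448, and 4130 and 10126 CPM. The median log2 ratio was 0.38 in batch 1, -1.17 in batch 3 and -0.90 in batch 4. In batch 1, 8 of 27 tested genes were called higher, beside 28% of all genes. In batch 3 the one called gene was Siglech, a microglial lectin, lower at 0 of 3 proliferating against 9 of 31 0-read cells, and in batch 4 it was Itgam, an integrin subunit, higher at 60.1 against 17.2 CPM. A further list of 20 genes of microglial growth signals and activation, which shares Csf1r with the microglial list and Apoe with the astrocyte list, had medians of 2.89, -0.32 and -0.55, with 9 of 16, 6 of 19 and 2 of 18 tested genes called higher and none lower. Without the highest cells its medians were 0.80, -0.72 and -0.68.

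C1qb, a complement subunit made by microglia, held 2556 CPM in proliferating and 1050 CPM in 0-read cells of batch 1, but 1067 and 1592 CPM in batch 3 and 853 and 1886 CPM in batch 4. Csf1r, the receptor that microglia need to survive, held 427 and 123 CPM, 142 and 757 CPM, and 202 and 301 CPM in the same order. Cx3cr1, the fractalkine receptor, was lower in proliferating cells of all 3 batches, at 133 and 715 CPM, 349.8 and 461 CPM, and 98.4 and 278 CPM, without passing the call in any. The microglial genes were spread over most proliferating cells: Ctss, C1qa and C1qb each had a read in 18 of 19, while Pf4, a gene of border macrophages, had a read in none. In-slice controls had a median summed level of 5727 CPM, and no-gRNA cells 152 CPM.

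The summed astrocyte level exceeded the microglial level in 15 of 19 proliferating cells (78.9%) and in 110 of 148 0-read cells (74.3%). Batch 5, without proliferating cells, gave 43 of the 110. The counts were 3 of 4 and 7 of 9 in batch 1 and 1 of 2 and 16 of 21 in batch 2. In batch 3 they were 3 of 3 and 23 of 31, and in batch 4 they were 8 of 10 and 21 of 39. The 4 proliferating cells with more microglial than astrocyte reads were g-Control replicate 7 of batch 1, g-Control replicate 15 of batch 2, and g-Control replicate 32 and g-Sox9+Trps1 replicate 40 of batch 4. Each of these also read 24 or more astrocyte genes. The clearest cell cycle libraries lay on both sides: g-Sox9+Trps1 replicate 7 had 36842 CPM of astrocyte and 1438 CPM of microglial genes, whereas g-Control replicate 7 had 13823 and 22255 CPM. Which cell of a mixed library carried the cell cycle reads was not tested.

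**Figure D4:**
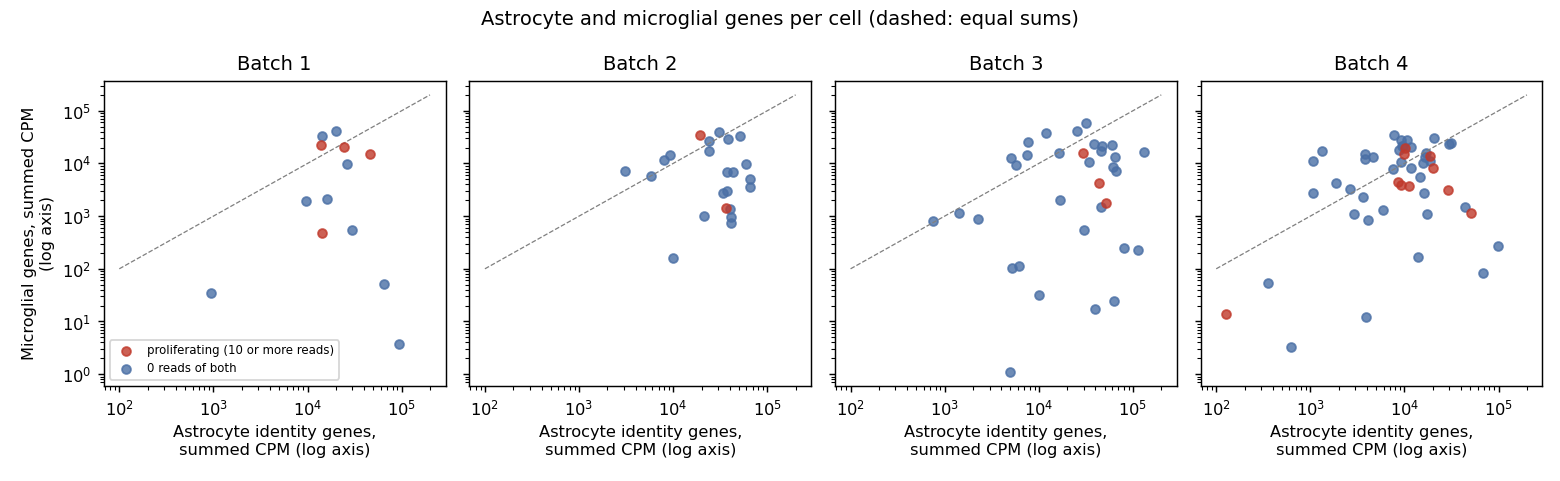
Summed CPM of 30 astrocyte identity genes (horizontal) against that of 32 microglial genes (vertical), both on log axes, 1 point per guide-carrying cell of batches 1 to 4, proliferating cells in red and 0-read cells in blue, with a dashed line at equal sums. Of the 19 proliferating cells 15 lie below the line, and g-Trps1 replicate 20 lies at the lower left of batch 4.

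Among markers of other cell types, those of oligodendrocyte progenitors differed by batch and by measure. Oligodendrocyte progenitor genes, of a cell type that divides in the adult cortex, summed to a median of 121 CPM (0 to 894) in proliferating cells and 13.4 CPM (0 to 7773) in 0-read cells, 10 of the 12 were read in a larger share of proliferating cells, and 15 of 19 proliferating cells stood above the median 0-read cell of their batch, but 1 of 4 in batch 1. The pooled median ratios of the list were -2.84 in batch 1, where both tested genes were called lower, -1.69 in batch 3 and 0.60 in batch 4. None of the 19 cells stood above the highest 0-read cell, and the part of these genes in the cell cycle result was not tested. Neuronal genes had medians of 961 and 2171 CPM. Endothelial genes had medians of 0.359 and 0 CPM. The list with the highest summed level among 11 cell type lists was astrocyte identity in 14 of 19 proliferating and 95 of 148 0-read cells and microglia in 4 and 31. It was that of pericytes, smooth muscle and fibroblasts, at 1347 CPM, in g-Trps1 replicate 20.

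Beyond the cell cycle lists, DNA repair genes of recombination and end joining had median ratios of 1.71, 1.86 and 2.799 in batches 1, 3 and 4, with 5 of 9, 11 of 17 and 4 of 5 tested genes called higher and 1, 0 and 0 lower. Over all genes 28%, 22.9% and 21.6% were called higher in these batches. Without the highest cells the list medians were 0.00, 0.00 and 2.02. Fanca, of the Fanconi anaemia repair complex, was called in all 3, at 66.4 and 0 CPM, 52.4 and 2.52 CPM, and 47.3 and 0.0214 CPM, from 1 of 4, 1 of 3 and 5 of 10 proliferating cells. DNA damage and p53 genes had medians of -0.11, 0.55 and 1.59, and 3 of 14, 8 of 19 and 12 of 21 were called higher and 2, 0 and 0 lower, so the batch 1 share lay below that of all genes. Without the highest cells the medians were -0.02, 0.18 and 0.44. Cdkn1a, the p53 target p21 that arrests the cell cycle, held 614 and 462 CPM in batch 1, 248 and 170 CPM in batch 3 and 446 and 52.03 CPM in batch 4, where it was called. Phlda3, another p53 target, held 311 and 117 CPM in batch 3 and 276 and 35.4 CPM in batch 4.

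Genes of D cyclins and cell cycle inhibitors had medians of -0.08, 0.11 and -0.07, with 5 of 16, 5 of 17 and 2 of 15 called higher and 2, 1 and 0 lower, shares near or below those of all genes. Cdk4, the D cyclin kinase, was called in batch 1 at 324 and 20.2 CPM, and held 292 and 145 CPM in batch 3 and 73.7 and 39.6 CPM in batch 4. Btg2, an antiproliferative gene, held 93.1 and 935 CPM in batch 1, where it was called lower, 111 and 446 CPM in batch 3, and 167 and 210.03 CPM in batch 4. Genes of antigen presentation had medians of -0.95, -0.93 and -0.94, with 1 of 11, 1 of 9 and 0 of 11 tested genes called higher and none lower. The shares called higher lay below those of all genes, at 28%, 22.9% and 21.6%. Of all genes 8.24%, 2.31% and 0.469% were called lower, so a list of this size could well hold none. H2-K1, a class I heavy chain, held 612 and 1224 CPM, 186 and 560 CPM, and 432 and 674 CPM.

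**Figure D5:**
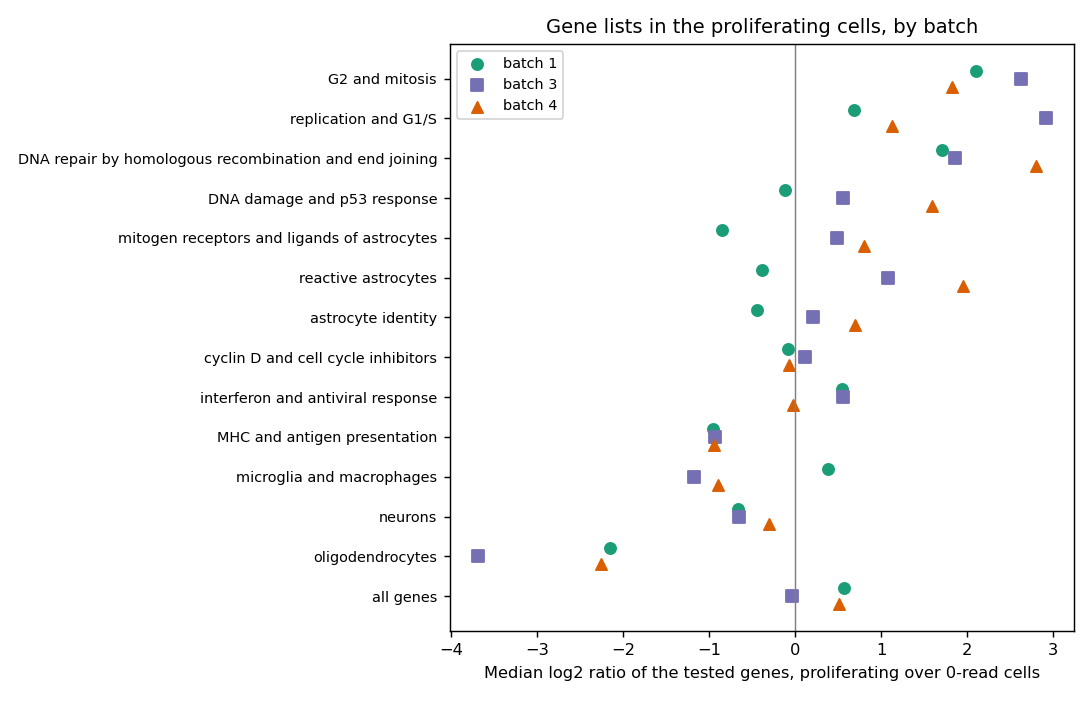
Median log2 ratio of pooled CPM plus 5, proliferating over 0-read cells, over the tested genes of 13 lists and over all genes, in batches 1 (circles), 3 (squares) and 4 (triangles). The 2 cell cycle lists lie right of all genes in every batch, while astrocyte identity spans -0.44 to 0.69 and microglial genes -1.17 to 0.38.

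Reactive astrocyte genes had medians of -0.39, 1.08 and 1.95, with 3 of 15, 10 of 17 and 6 of 15 called higher and 3, 0 and 0 lower. The share called higher lay below the 28% of all genes in batch 1 and above the 22.9% and 21.6% in batches 3 and 4. Without the highest cells the medians were -0.69, 0.00 and 0.27. Vim, an intermediate filament of reactive astrocytes, was read in 10 of 10 proliferating and 14 of 39 0-read cells of batch 4, at 541 and 62.7 CPM, and held 766 and 116 CPM in batch 3 and 608 and 463 CPM in batch 1. Timp1, a metalloproteinase inhibitor of reactive astrocytes, was called in all 3 batches, at 40.7 and 0 CPM, 77.1 and 9.73 CPM, and 79.6 and 0.449 CPM. Of mitogen receptors and ligands, the FGF receptor Fgfr1 and the endothelin receptor Ednrb were called higher in batches 3 and 4. Fgfr1 held 420 and 55.9 CPM in batch 3 and 149.8 and 7.12 CPM in batch 4, but 31.8 and 234 CPM in batch 1.

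The levels of the gRNA targets overlapped between the groups. Sox9, a transcription factor of astrocytes on chromosome 11, was read in 15 of 19 proliferating and 114 of 148 0-read cells. Over all batches it ran from 0 to 2170 CPM (median 94.7) in proliferating cells and from 0 to 7718 CPM (median 154) in 0-read cells. Within batches 1 to 4 the medians were 178 and 196, 1309 and 276, 356 and 146, and 17.7 and 0 CPM. By cell, 13 of 19 proliferating cells stood above the median 0-read cell of their batch. The pooled ratios were -2.69, -1.53 and -0.64 in batches 1, 3 and 4, without a call. The batch 1 ratio mixed gRNA labels: the 3 g-Sox9+Trps1 0-read cells held 1667 to 3309 CPM of Sox9, whereas within g-Control the median was 261 CPM in proliferating cells (94.7 to 357) and 32.3 CPM in 0-read cells (1.94 to 475). The highest 0-read cell of each batch lay above every proliferating cell of that batch, and the 0-read cells were the more numerous in each. Trps1, a GATA-type zinc finger repressor on chromosome 15, was read in 10 of 19 and 76 of 148 cells, at 0 to 134 CPM (median 0.798) and 0 to 3454 CPM (median 0.545). The pooled ratios were -2.84, -1.86 and -1.95, and the 0-read pools held some cells of high level. In batch 1 the g-Sox9+Trps1 0-read cells reached 786 CPM, whereas g-Control cells reached 20.9 CPM in proliferating and 17.4 CPM in 0-read cells. The 0-read cells reached 3454 CPM in batch 3 (median 9.46) and 2379 CPM in batch 4 (median 0.697). By cell, 8 of 19 proliferating cells stood above the median 0-read cell of their batch. Of related factors, Id3, an inhibitor of differentiation factors, was called higher in all 3 batches, at 114 and 1.40 CPM, 1153 and 360.2 CPM, and 179 and 79.1 CPM. Id4 was called lower in batches 1 and 3, at 0 and 76.9 CPM and 0.655 and 26.6 CPM, and held 2.63 and 20.9 CPM in batch 4.

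Outside the lists, 212 genes were called higher in at least 2 of the 3 batches with the same sign in all, also without the highest cells, and 7 lower. The share of genes that these counts make up was not computed. Single batches called 28%, 22.9% and 21.6% of all genes higher, so the 212 are no result about these genes as a group. Igfbp2, an insulin-like growth factor binding protein, was read in 4 of 4, 3 of 3 and 6 of 10 proliferating cells, at 464 and 115 CPM, 2690 and 34.9 CPM, and 440 and 49.7 CPM, and its ratios without the highest cells were 3.93, 6.20 and 3.54. Spc24, a kinetochore subunit, held 138 and 0 CPM, 67.7 and 0.0221 CPM, and 88.9 and 0.962 CPM. Smarcc1, a chromatin remodelling subunit, held 79.7 and 0 CPM, 48.7 and 34.8 CPM, and 267 and 6.12 CPM. The nuclear pore genes Ndc1 and Nup85 had median ratios of 3.14 and 3.08, the translation factor gene Eif2b2 3.46 and the phosphatase subunit gene Ppp2r5d 3.14. Of the 15 with the highest median ratios, the remaining ones were Rnf215, Rhbdf1, Lmf2, Cc2d1b, Memo1, Ddit4l, Wdr73 and Myg1, at 3.10 to 5.50. Single cells carried some of these ratios: in batch 1, without the highest cells, Rhbdf1 had 0.06 in place of 6.14 and Lmf2 0.06 in place of 6.03. Wdr73 likewise had 0.06 in place of 3.34 and Nup85 0.06 in place of 3.08. Batch 2, with 2 proliferating cells, was outside the rule and went both ways. There Eif2b2 held 0.378 and 91.0 CPM, Cc2d1b 0 and 38.4 CPM, and Smarcc1 0 and 16.9 CPM. Spc24 held 366 and 0.0618 CPM and Rnf215 47.2 and 21.3 CPM. The lower genes were Zfp248, Eif2b3, Adap1, Map7d2, Stx18, Csnk1g2 and Cacng2, with median ratios of -2.73 to -1.33. In batch 1, without the highest cells, Zfp248 had -0.10 in place of -2.73 and Eif2b3 had -0.07 in place of -4.44. Adap1, a GTPase-activating protein abundant in neurons, held 48.3 and 242 CPM, 10.7 and 124 CPM, and 15.6 and 56.4 CPM.

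The comparison was repeated within single gRNA labels, and in batches 3 and 4 within single days. The median ratio of cell cycle genes was 1.91 in g-Control cells of batch 1 (3 against 6 cells), 1.81 in g-Sox9 cells of batch 3 (2 against 19), 1.90 in g-Control (2 against 7), 1.25 in g-Sox9 (2 against 12) and 3.09 in g-Trps1 cells (5 against 8) of batch 4. Microglial genes had medians of -0.49, -1.23, -0.39, -0.76 and -1.74 in the same pools and astrocyte identity genes 0.62, 0.03, 0.42, 1.01 and 0.82. The astrocyte and the microglial value of batch 1 both changed sign when its g-Sox9+Trps1 cells were left out, from the pooled -0.44 and 0.38. Cell cycle genes had the highest of the 3 medians in each of these pools. Over the 5 pools the median for all genes was 0.999, against 0.51 in the comparison within batch. Beside that 0.999 the medians over the pools were 1.90 for cell cycle, 0.62 for astrocyte identity and -0.76 for microglial genes.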

How the data were processed

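Each sample was 1 cell or in-slice control, and 254 of 289 labelled samples had values in 5 batch tables; 35 samples of batch 4 were not analysed here, and no column was left unmapped. The values were raw read counts per gene, deposited by the authors without molecular identifiers. Per the submitters' processing notes, the tools were STAR (2.6.0a) and RSEM (1.3.0) and the builds GRCm38 or mm10; strand use is not stated. Rows naming no gene held 75.6% of counts in batch 1, 22.3% in batch 2 and under 1% elsewhere, and stayed out of totals. Totals in genes ran from 15959 to 4656612 reads per library.

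Counts were summed per batch and group and scaled to CPM in Python 3.11.15 (numpy 2.4.6, pandas, scipy), with no test, since no animal is named. Intervals are 95%, exact Poisson for CPM and exact binomial (Clopper-Pearson) for shares, and cover counting error only; a count of 0 is bounded by 3 counts. The ratio step was tested on simulated counts with counting noise alone, a smaller pseudocount and abundant genes only. That test does not cover the spread between the real cells or the ratio with 5 CPM added. Genes outside the lists were named where called in at least 2 usable batches with 1 sign in all, also without the highest cell of each pool, up to 15 per direction by median ratio; mitochondrial, ribosomal protein and predicted genes were left out. From each list the most abundant members and those a small count turned on were named, with others chosen after their values were seen. The members, the gene lists and the call rule were chosen with earlier results of these data known. The 24 lists matched all 462 entries to gene IDs. Replicate numbers only name cells.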

Additional observations from a re-analysis of the deposited data

Results flagged for a closer look

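In groups of 4 to 10 cells, 21 sets of values were searched for a value far from the rest, and 5 were found. The rule's rate of about 1 in 20 sets by chance assumes values with a bell-shaped spread. Read levels of single cells are skewed and often 0, so the 5 cannot be set against that rate. Among the 4 proliferating cells of batch 1, g-Control replicate 7 read 54 cell cycle genes and the next cell 20. In the same group g-Control replicate 2 held 20.9 CPM of Trps1 and the others 0. Among the 0-read cells of batch 1, g-Sox9+Trps1 replicate 2 held 786 CPM of Trps1 and the next cell 91.9. Among the 10 proliferating cells of batch 4, g-Sox9 replicate 41 held 525 CPM of Sox9 and the next cell 109. In that group g-Trps1 replicate 12 held 13620 CPM of cell cycle genes, against 5590 in the next cell.

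Rows of vector and guide sequence were outside the main measurement. In batch 4, 7 of 10 proliferating cells had more DsRed reads than the higher in-slice control (671 reads); the 10 cells ran from 0 to 36287 reads with a median of 2474.5, and the 39 0-read cells from 0 to 28003 with a median of 515. In batch 3, 2 of the 3 proliferating cells, both labelled g-Sox9, had more reads of the second Sox9 guide than any in-slice control, which had at most 1: g-Sox9 replicate 2 had 6 and replicate 17 had 3.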

How the results depend on the processing

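The median cell cycle ratio of 1.82 was 3.19 with a pseudocount of 1 CPM, 3.01 with a filter of 20 CPM, 0.75 without the highest cell of each pool gene by gene and 1.09 where a read of both rule genes was required, which left batch 4 alone; it ran from 1.76 to 2.26 with a batch left out. Its sign held in all 15 alternatives. The all-gene median was itself above 0 in most of them, so the sign alone does not set these genes apart. The cell cycle median was the higher of the 2 in each, at 1.09 beside 0.61 where both rule genes were required. The astrocyte median of 0.21 ran from -0.12 to 0.45 with a batch left out and the microglial median of -0.90 from -1.04 to -0.26. Genes past the call averaged 2927 per batch (2557 higher, 370 lower). They were 1909 (1696 and 213) with a filter of 20 CPM and 1801 (1542 higher) without the highest cells, and the lower calls were 564 within gRNA label and day and 127 with both rule genes. With a batch left out, the calls ran from 2640 to 3193, the higher from 2483 to 2663 and the lower from 157.5 to 529.5, the lowest without batch 1. Requiring both rule genes left 8 of 19 proliferating cells. The ratio of median genes read, 1.501, ran from 1.497 to 1.86 with a batch left out. Scaling by the median of ratios moved the all-gene median of 0.51 to -0.07 and the cell cycle median to 1.63. Leaving out g-Trps1 replicate 20, requiring both rule genes, and thinning or leaving out batches for genes read were added after the data were seen. The causes of these shifts were not tested. The pools held 3 to 10 proliferating cells, which limits every ratio. No paired analysis was possible because replicate numbers were given in accession order and pair no cells.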
